A study of Mus musculus with 2 samples.

Results

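Zic1, Zic2, Zic4 and Zic5 encode zinc finger transcription factors and lie in the mouse genome as head-to-head pairs, Zic1 with Zic4 on chromosome 9 and Zic5 with Zic2 on chromosome 14. The 4 genes were found by their GENCODE M1 symbols among 37273 annotated genes of the NCBI37/mm9 genome, and every R-loop peak over a gene, between the genes of a pair or within 10 kb of a pair was collected, which gave 5 of the 22132 peaks in the list. Neural stem/progenitor cells (NSPCs) were taken from the frontal brain of C57BL/6 mice at postnatal day 7, and the cultures had been exposed for 48 h to 0.5 μM aphidicolin, a DNA polymerase inhibitor that causes mild replication stress. This treatment is known from the methods alone, as the sample labels name none. In DNA:RNA immunoprecipitation with sequencing (DRIP-seq), genomic DNA is cut with restriction enzymes, the fragments that carry RNA:DNA hybrids are pulled down with an antibody called S9.6, and their DNA is sequenced. The data consisted of 1 list of peaks for the DRIP sample, which holds a chromosome, a start and an end for each peak and no score, read count or strand, and the input sample was not analysed here. All treated cultures share the aphidicolin exposure, so R-loops at baseline cannot be told apart from those under replication stress. Because 1 list stands for 3 biological replicates and no depth is recorded, the values below have no replicate error and no difference was tested.

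R-loops are three-stranded structures in which nascent RNA pairs with its DNA template and the other DNA strand stays unpaired. They are best known from GC-rich, transcribed DNA, at promoters and transcript ends. The ZIC proteins (zinc finger proteins of the cerebellum) are related to the GLI factors of Hedgehog signalling and bind DNA through a tandem array of zinc fingers of the C2H2 kind, in which cysteine and histidine residues hold a zinc ion. Zic1 and Zic2 keep neural precursors from differentiating too early, Zic2 is needed for division of the forebrain into hemispheres, Zic1 and Zic4 act together in growth of the cerebellum, and Zic5 works in neural tube and neural crest development.

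All 4 Zic genes contained an R-loop peak, against a background of 39.6% of 22367 protein-coding genes, and in each of them a peak lay over the same part of the coding sequence. That part is the end of the exon that encodes the first zinc fingers of regular C2H2 spacing. The stretch of 172 bp from the codon of the first cysteine of that spacing to the end of its exon was covered to 100% by a peak in Zic1, Zic2, Zic4 and Zic5. The peaks were not confined to this stretch. In Zic1, Zic4 and Zic5 a peak covered the whole coding part of that exon, and in Zic2 it covered 47.5% of it. The stretches of Zic5 and Zic2 are printed here on the coding strand of mm9, as examples of what the peaks of the 4 genes had in common, with the codons of the cysteines and histidines that fit the spacing in capitals.
Zic5, chr14:122863114-122863285, minus strand: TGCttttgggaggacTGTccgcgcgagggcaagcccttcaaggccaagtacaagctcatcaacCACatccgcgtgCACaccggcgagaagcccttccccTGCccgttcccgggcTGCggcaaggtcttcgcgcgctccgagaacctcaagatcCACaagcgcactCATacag
Zic2, chr14:122875798-122875969, plus strand: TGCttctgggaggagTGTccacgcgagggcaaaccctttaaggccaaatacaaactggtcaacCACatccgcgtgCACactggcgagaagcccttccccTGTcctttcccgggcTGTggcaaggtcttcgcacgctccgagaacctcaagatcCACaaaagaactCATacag

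The fingers were found in the translation of the longest protein-coding transcript as a cysteine, 2 to 4 residues, a cysteine, 12 to 15 residues, a histidine, 3 to 4 residues and a histidine, a spacing that leaves out atypical fingers, such as the one that opens the ZIC array, so the matches are numbered here by their own order. Each of the 4 proteins held 4 such matches, in 447 residues of ZIC1, 529 of ZIC2, 334 of ZIC4 and 622 of ZIC5. The codons of matches 1 and 2 lay wholly in a peak in all 4 genes. Among 573 protein-coding genes whose protein has 2 or more matches, 48.2% had a peak anywhere. Of the 573, 92 had their first 2 matches wholly in peaks, which is 16.1%. Any match lay wholly in a peak in 126 of the 573. The 92 genes are most of these 126, so coverage of the first 2 matches is not particular to the Zic genes. The measure of the first 2 matches was chosen after the positions of the peaks had been seen. Matches 3 and 4, which are encoded by the following exons, were covered to 0% in Zic2, Zic4 and Zic5. Zic1 differed from the other 3 genes, with 69.6% of match 3 and 100% of match 4 inside its other peak. In each gene the peak ran past the end of that exon of the longest transcript, by 54 bp in Zic4, 104 bp in Zic2, 258 bp in Zic1 and 856 bp in Zic5. In Zic2 these bases are exonic in a shorter transcript, so 0% of the sequence that is intronic in all its transcripts was covered.

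**Figure D1:**
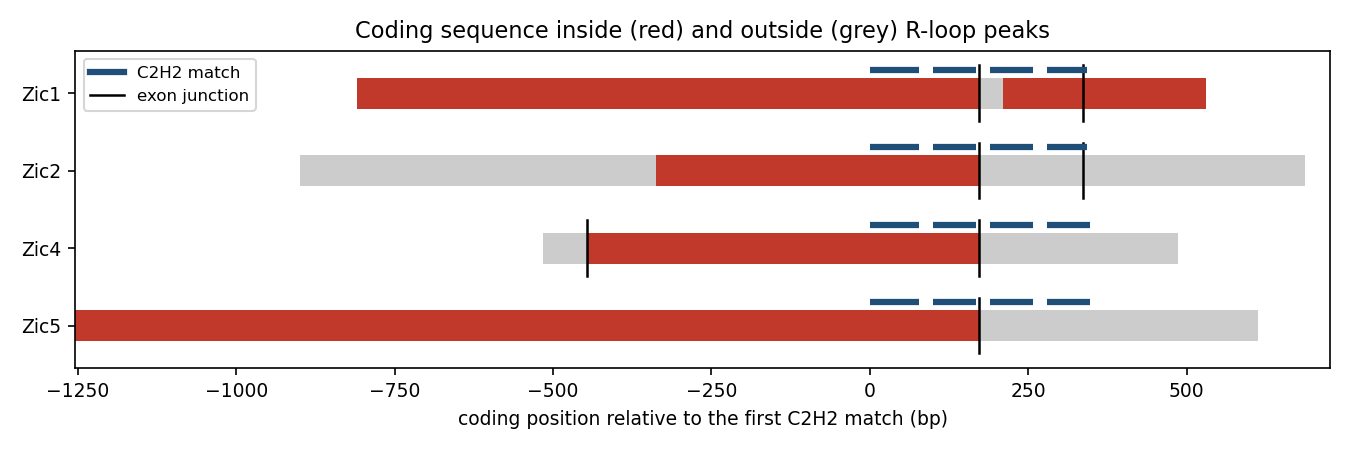
Coding sequence of the longest protein-coding transcript of each gene, drawn in bp from the first C2H2 match, with red for bases inside an R-loop peak, grey for bases outside, blue bars for C2H2 matches and black lines for exon junctions. The red parts of Zic1, Zic2, Zic4 and Zic5 all include matches 1 and 2 and reach the exon junction 172 bp from the start of match 1.

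The 172 bp stretches are alike in sequence. Identity was highest between Zic5 and Zic2, at 90.1%, and lowest among the 4 genes between Zic1 and Zic4 and between Zic4 and Zic5, at 82.0% in each case. The longest run of identical bases was 32 bp, between Zic1 and Zic2, followed by 31 bp between Zic1 and Zic4. The part that reads shared between these exons have in the peaks was not tested.

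The Zic1-Zic4 window of 51.3 kb, from 10 kb left of Zic1 to 10 kb right of Zic4 (chr9:91242896-91294186), held 3 peaks that covered 10.8% of its bases. No peak lay in either flank of 10 kb. The next peak was 703 kb away on the Zic1 side and 388 kb away on the Zic4 side, whereas the median gap between neighbouring peaks of the whole list was 23.6 kb and 8.73% of gaps reached 300 kb. Chromosome 9 had 10.1 peaks per Mb.

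**Figure D2:**
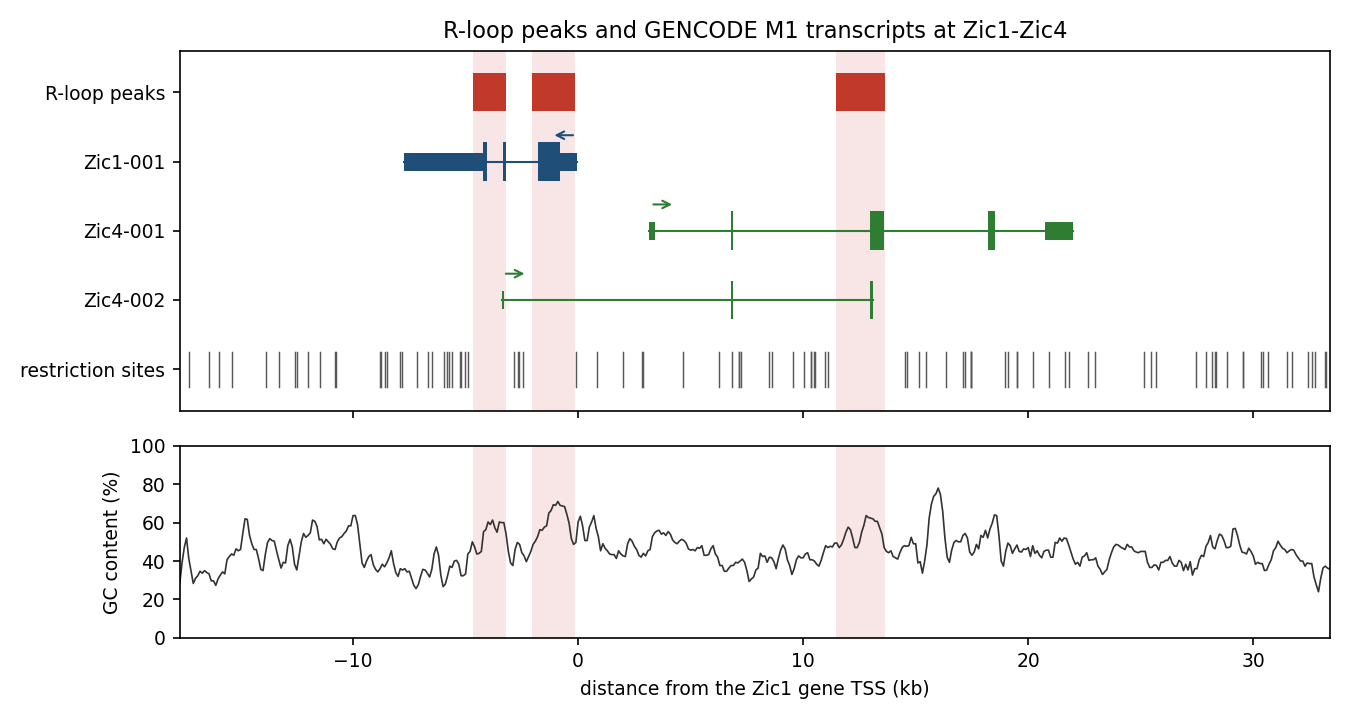
The Zic1-Zic4 window in kb from the Zic1 gene TSS (negative to its left), with R-loop peaks in red, the longest protein-coding transcripts and Zic4-002 (wide boxes coding, narrow boxes other exonic sequence, arrows the direction of transcription), recognition sites of the 5 enzymes, and GC content in sliding windows of 300 bp. Of the 3 peaks, 2 lie over Zic1 and 1 over the third exon of Zic4, and the highest GC content, 78.0% at 16.0 kb, lies outside the peaks.

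Zic1 (ENSMUSG00000032368, minus strand, chr9:91252896-91260648, 7.75 kb) held 2 peaks that covered 42.7% of the gene, more than in 81.2% of the 8858 protein-coding genes with a peak, whose median was 10.4%. Its coding sequence of 1341 bp was covered to 97.2%, the highest share of the 4 genes and higher than in 90.2% of the genes with a peak. The first of these peaks in the direction of transcription (chr9:91258616-91260493, 1.88 kb) covered 93.5% of exon 1, including the whole coding part of that exon. It stopped 113 bp short of the TSS of Zic1-001 and 155 bp short of that of Zic1-002, so neither start was inside it. The other peak (chr9:91255990-91257422, 1.43 kb) began 3.18 kb after the TSS of Zic1-001 and covered 76.8% of exon 2, the intron that follows, and the whole coding part of exon 3. It ended within the 3' untranslated region, and of the 3709 bp of exon 3 only 16.6% was covered, so the transcript end was free of peaks. Exon 3 had a GC content of 37.8% over its whole length and 61.5% in its coding part.

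Zic4 (ENSMUSG00000036972, plus strand, chr9:91257251-91284186, 26.9 kb) overlapped 3 peaks, and 15.8% of the gene was covered, more than in 59.8% of genes with a peak. This count depends on a single transcript. GENCODE M1 lets Zic4-002, an incomplete model, start inside Zic1, so the limits of Zic1 and Zic4 overlap by 3398 bp and both Zic1 peaks are also counted in Zic4. By the limits of Zic4-001, the longest protein-coding transcript, Zic4 held 1 peak and 11.7% was covered. That peak (chr9:91272085-91274294, 2.21 kb) lay 8.28 to 10.5 kb downstream of the TSS of Zic4-001. It covered the whole of exon 3, the largest coding exon with 618 bp, and no other exon of Zic4-001. Exons 1, 2, 4 and 5 were covered to 0%. Exon 4, which encodes matches 3 and 4, had a GC content of 58.5% and a ratio of observed to expected CpG of 1.11, and exon 3 had 58.4% and 0.638. Of all Zic4 coding bases, 59.7% were in peaks. The 3201 bp between the TSS of Zic1-001 and that of Zic4-001 contained no base of a peak.

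The Zic2-Zic5 window of 43.1 kb (chr14:122846017-122889074) held 2 peaks, 1 in each gene, that covered 8.62% of its bases. Again no peak lay in either flank of 10 kb. The nearest peak outside, chr14:122842730-122844431 with 1.70 kb, was in the intron of Gm5089, a predicted gene that reaches into the left flank, at 11.6 kb from Zic5 and so just beyond the limit used to collect peaks. On the Zic2 side the next peak was 514 kb away. Chromosome 14 had 6.41 peaks per Mb.

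**Figure D3:**
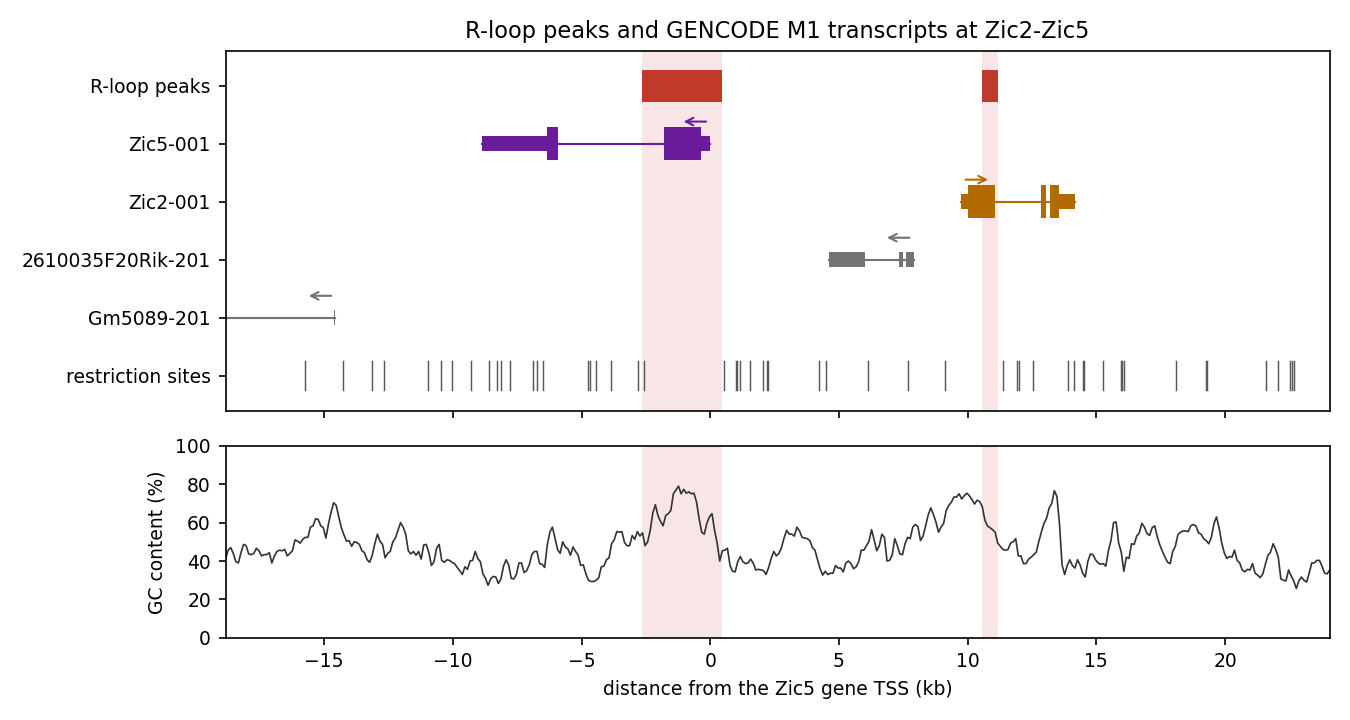
The Zic2-Zic5 window in kb from the Zic5 TSS, drawn as for Zic1-Zic4, with 2610035F20Rik and the end of Gm5089 that lies in the window. The wide peak spans the Zic5 TSS and exon 1, the narrow peak lies over the last part of Zic2 exon 1, and the rest of the space between them is free of peaks.

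Zic5 (ENSMUSG00000041703, minus strand, chr14:122856017-122864899, 8.88 kb) held 1 peak (chr14:122862258-122865355), the widest of the 5 with 3.10 kb, and 29.7% of the gene was covered, more than in 73.8% of genes with a peak. It started 456 bp upstream of the TSS, spanned the TSS and all 1786 bp of exon 1, and ran into the intron. The coding sequence was covered to 76.4%. Exon 2, which holds the rest of the coding sequence and the 3' untranslated region, was covered to 0%, with a GC content of 38.1% against 69.3% in exon 1.

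Zic2 (ENSMUSG00000061524, plus strand, chr14:122874604-122879074, 4.47 kb) held 1 peak (chr14:122875461-122876073), the narrowest of the 5 with 0.613 kb, and 13.7% of the gene was covered, more than in 56.6% of genes with a peak. In the list, 24.3% of all peaks were narrower. The peak began 804 bp after the TSS of Zic2-001 and covered the last 509 bp of exon 1. Those 509 bp had a GC content of 59.1%, and the 804 bp of exon 1 before the peak had a higher one, 72.8%. Exons 2 and 3 were covered to 0%, although the coding part of exon 3 had a GC content of 73.8%. The coding sequence was covered to 32.1%, the lowest share of the 4 genes. Because this peak is under 1 kb, Zic2 was left without any once peaks shorter than 1 kb were taken out.

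Ordered by the share of the gene covered, Zic1 was followed by Zic5, Zic4 and Zic2. With 1 list there is no spread by which neighbours in this order could be told apart. By the limits of the longest protein-coding transcripts Zic4 (11.7%) and Zic2 (13.9%) changed places. The 4 genes lie above the median of genes with a peak, which are longer, with a median of 27.4 kb against 4.47 to 26.9 kb here, and in a shorter gene the same peak covers a larger share.

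**Figure D4:**
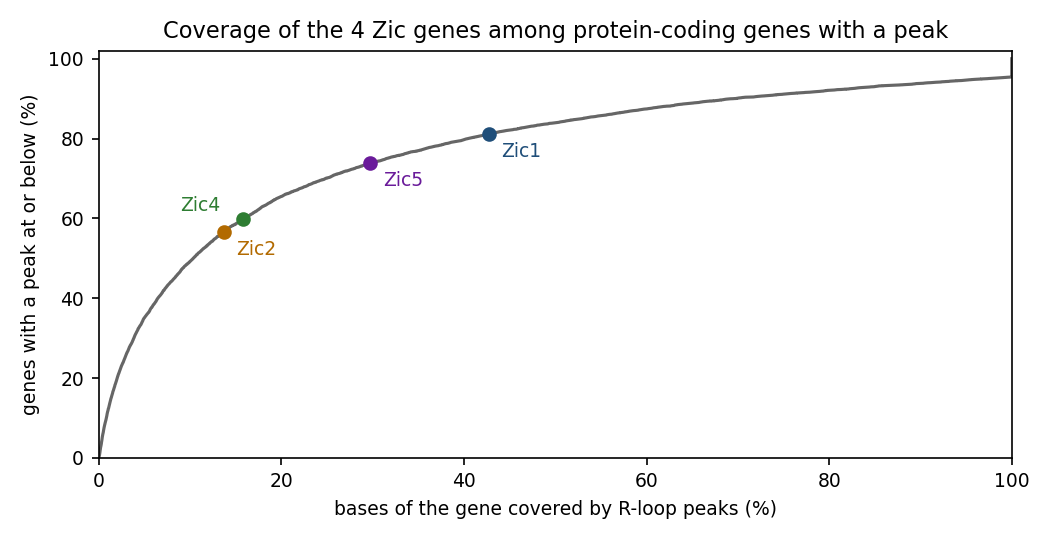
Share of each protein-coding gene covered by R-loop peaks (x axis, %) against the share of the 8858 genes with a peak at or below that value (y axis, %), with the 4 Zic genes as points. Zic2 and Zic4 lie close together at 13.7% and 15.8%, and Zic5 and Zic1 follow at 29.7% and 42.7%.

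Coding bases were in a peak in all 4 genes, against 27.2% of all protein-coding genes and 68.8% of those with a peak. Each of the 5 peaks overlapped coding sequence, compared to 47.5% of the 16451 peaks over protein-coding genes. The ends of the genes were looked at in the same way. The TSS lay in a peak in 2 of the 4 genes, against 14.9% of protein-coding genes, and in Zic4 this rested on Zic4-002, so with the longest protein-coding transcripts Zic5 was the only one. With a distance of 500 bp allowed, the TSS count was 3 of 4, and no background share was computed for that distance. The end of the gene (TES) lay in a peak in 0 of 4, against 10.9%, and 4 genes are too few to tell 0 from that share. Of the 20 annotated transcripts of the 4 genes, 12 belong to Zic4. The share over all annotated transcripts was computed for neither starts nor ends, so the transcript counts only list which models are concerned. Of the 20, 4 started in a peak, namely Zic5-001, Zic4-002, Zic4-008 and Zic4-010. A peak also held the end of 4 transcripts, namely Zic1-003, Zic4-007, Zic4-011 and again Zic4-002. In all 4 the annotated coding sequence runs to the last base of the transcript, so these models are incomplete at that end.

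A peak in both genes of a pair was found at the 2 Zic loci and in 832 of 2720 head-to-head pairs of protein-coding genes with starts up to 20 kb apart, which is 30.6%. In a further 34.7% of pairs 1 gene held a peak. The space between Zic5 and Zic2 measured 9.70 kb, and 456 bp of it, or 4.70%, were covered, all of them next to Zic5. In pairs with a space of at least 5 kb, 27.6% had a base of it in a peak. The long intergenic RNA 2610035F20Rik (chr14:122869506-122872801, minus strand), which lies in this space, had no peak, and the nearest was 2.66 kb from it. Likeness was looked for among pairs with starts at least 1 kb and at most 20 kb apart. Among 90 such pairs with overlapping limits, the coverage of the gene pair was most like that of Zic1 and Zic4 in Ciz1 and Dnm1, with a mean difference of 2.37 percentage points over the 2 genes, then in Gys1 and Ruvbl2 (2.58 points) and in Jmjd4 and Snap47 (4.36 points). Among 1494 such pairs with a space between them, the coverage of both genes and the space was most like that of Zic5 and Zic2 in Pml and Stoml1, with a mean difference of 3.10 points, followed by 1500010J02Rik and Pfas (3.12 points) and Eral1 and BC017647 (3.25 points). In these 3 pairs the space itself was covered to 0%.

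All 5 peaks were rich in GC and in CpG. GC content was 55.0% and 60.4% in the peaks of Zic1, 54.8% in Zic4, 63.6% in Zic5 and 57.9% in Zic2, each above the median of 48.7% over all peaks and higher than in 84.8% to 97.6% of them. The number of CpG dinucleotides relative to that expected from base composition ranged from 0.537 in the Zic4 peak to 0.775 in the Zic5 peak, against a median of 0.213. In the Zic1-Zic4 window the GC content was 56.7% in the peaks and 44.2% outside, and in the Zic2-Zic5 window 62.7% and 46.1%. A high GC content also occurred outside the peaks. Of the sliding windows with a GC content of at least 65%, 8 of 14 were centred in a peak at Zic1-Zic4 and 14 of 36 at Zic2-Zic5. Peaks covered 10.8% of all bases at Zic1-Zic4 and 8.62% at Zic2-Zic5, so windows of high GC content were centred in peaks more often than that. The sliding windows overlap, so these counts are not of separate places.

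**Figure D5:**
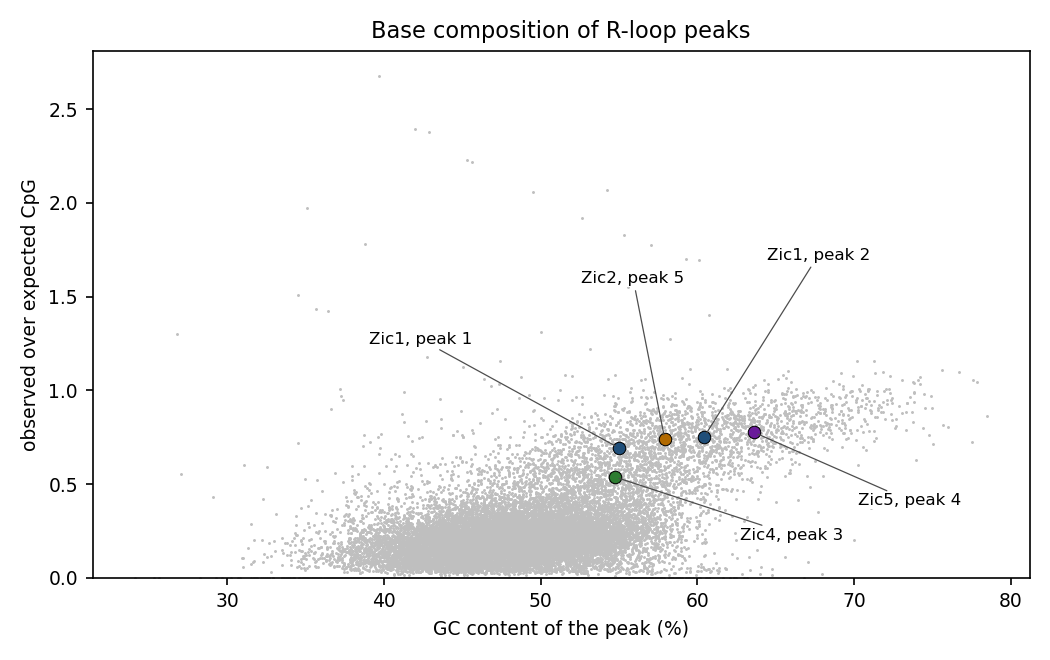
GC content (x axis, %) and observed over expected CpG (y axis) of all R-loop peaks (grey; 36 peaks with no G or no C are left out) and of the 5 peaks at the Zic genes (coloured, numbered by position along chromosome 9 and then 14). Every Zic peak lies to the right of the median GC content of 48.7% and above the median CpG ratio of 0.213.

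Stretches rich in G on the coding strand, where the displaced DNA strand of an R-loop would lie, were looked for next. GC skew, which is G minus C on that strand divided by their sum, was small in every peak except that of Zic5. It was 0.027 in the exon 1 peak of Zic1 and -0.028 in the other Zic1 peak, -0.0099 in Zic4, -0.048 in Zic2 and -0.11 in Zic5. C therefore outnumbered G on the coding strand in 4 of the 5 peaks. Of all peaks, 49.9% had more G than C on the plus strand. That share is not by coding strand, so it is no background for this count. Runs of GGGG, the motif searched here on each strand, occurred 6.28 and 6.39 times per kb on the coding strand of the Zic1 peaks, 5.88 times in Zic4, 7.10 times in Zic5 and 1.63 times in Zic2, where the median of all peaks was 3.2 per kb on either strand. On the opposite strand of the Zic5 peak there were 10.7 per kb. GGGG was found on one strand or the other in 92.4% of all peaks, so it does not set these apart. The 60 bp outside untranslated regions in which G exceeded C most within a peak are shown for Zic1 and Zic5 on the coding strand, with runs of GGGG or longer in capitals. They were picked for their excess of G, whereas over the whole of either peak C outnumbered G on that strand. In the exon 1 peak of Zic1, which is not the one shown, the corresponding stretch holds 21 G and 7 C. The Zic1 stretch holds 36 G and 6 C and the Zic5 stretch 27 G and 8 C.
Zic1, intron, chr9:91256679-91256738, minus strand: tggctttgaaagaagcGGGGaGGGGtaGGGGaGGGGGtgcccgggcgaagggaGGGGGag
Zic5, intron, chr14:122862614-122862673, minus strand: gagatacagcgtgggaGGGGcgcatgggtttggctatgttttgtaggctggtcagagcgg

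The promoters of Zic1 and Zic5 differed in their place relative to the peaks. Promoter sequences for Zic1, Zic4 and Zic5 came from the RefSeq table of GRCm38.p6 (250 bases before to 50 after the start), and each matched mm9 at 1 place. The parts outside annotated untranslated regions are printed for the gene whose promoter was in a peak and for the partner of Zic4, whose promoter was not, with runs of GGGG or longer in capitals. The 231 bp of the Zic5 promoter were covered to 100% and had a GC content of 62.3%. The 208 bp of the Zic1 promoter were covered to 0% and had a GC content of 71.2%. The 90 bp of the Zic4 promoter were also covered to 0%, with a GC content of 43.3%. GGGG stands on the coding strand of all 3 of these parts. It does so in 69.0% of the 32851 promoters of the table, whose entries are longer than these parts.
Zic5, promoter, chr14:122864900-122865130, minus strand: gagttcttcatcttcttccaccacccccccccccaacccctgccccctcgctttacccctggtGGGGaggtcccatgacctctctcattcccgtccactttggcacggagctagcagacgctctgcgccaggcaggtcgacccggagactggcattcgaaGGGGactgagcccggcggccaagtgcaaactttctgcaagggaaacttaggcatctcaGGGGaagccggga
Zic1, promoter, chr9:91260649-91260856, minus strand: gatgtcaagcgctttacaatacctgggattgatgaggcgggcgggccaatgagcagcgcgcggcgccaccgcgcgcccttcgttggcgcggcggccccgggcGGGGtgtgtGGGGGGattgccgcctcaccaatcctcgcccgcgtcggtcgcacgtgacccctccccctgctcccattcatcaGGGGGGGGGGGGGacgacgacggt

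Because the DNA was digested before immunoprecipitation, the 10 edges of the 5 peaks were compared with the recognition sites of the 5 enzymes EcoRI, HindIII, BsrGI, SspI and XbaI. Within 100 bp of a site lay 3 edges. The share of all peak edges that lie so near a site was not computed. Sites are dense here, with 95 in the 51.3 kb of the Zic1-Zic4 window and 54 in the 43.1 kb of the Zic2-Zic5 window. The count is therefore not read as a result about these peaks. The edge of the Zic1 exon 1 peak that faces the TSS was 40 bp from an SspI site, and the edges of the Zic5 peak were 59 bp and 97 bp from XbaI sites. The Zic5 peak was the only one with a site inside. From the nearest site left of a peak to the nearest site right of it, the span was 2043 to 3388 bp. In Zic2 this span was 2254 bp and also held the TSS of Zic2-001, which lies outside the peak. The part of these sites in the extent of the peaks, and how far digestion limits the placement of a peak within its fragment, were not tested.

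The related zinc finger genes outside the pairs were looked up in the same way. Of Gli1, Gli2, Gli3, Glis1, Glis2 and Glis3, 4 of 6 held a peak (39.6% of all protein-coding genes), and in 1 of 6 a coding base was in a peak (27.2%). This was Glis2, which encodes a GLI-similar factor, with 2 peaks, 40.9% of the gene and 100% of its coding sequence covered. Gli2 and Gli3, which carry the Hedgehog signal into the nucleus, are long genes of 219 and 267 kb, and 1.41% and 0.325% of them were covered. Glis3 had 4 peaks over 421 kb and a peak at its TSS, and 1.03% was covered. Gli1 and Glis1 had no peak, and the nearest peak was 35.8 and 21.9 kb away.

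Genes that mark neural stem and progenitor cells held peaks as well. Of Nes, Sox2, Vim, Fabp7, Msi1, Pax6 and Olig2, 5 of 7 had a peak, and each of these 5 had its TSS in a peak, where the shares over all protein-coding genes were 39.6% and 14.9%. Fabp7 and Pax6 had none. Of 8 genes that mark neurons, microglia and endothelial cells (Tubb3, Rbfox3, Syt1, Aif1, Csf1r, Cx3cr1, Pecam1 and Cldn5), 2 of 8 had a peak, namely Csf1r and Pecam1, and 0 had one at the TSS.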

How the data were processed

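DRIP-seq peaks of NSPCs were deposited by the authors as 1 list of positions on NCBI37/mm9, in which the coordinates are the sole values. Per the study's methods, reads were trimmed with Trim Galore 0.6.6, duplicates were removed and a Hidden Markov Model was used to call peaks; the aligner and the way in which the 3 replicates were combined are not given in the sources used here, and the depth is unknown. Peaks were set against the mm9 sequence and GENCODE M1 in Python 3.11.15 (numpy 2.4.6, scipy 1.17.1), and matplotlib 3.10.9 drew the figures. Overlap was counted from 1 bp, by the outer limits of all transcripts of a gene. The step was tested on simulated data and recovered the count and coverage of 200 of 200 genes. No test was made, since 1 list has no replicates. Related genes, marker genes and alternatives were listed first, and the named pairs were those of smallest mean absolute difference in coverage, computed for Zic1-Zic4 over pairs with overlapping limits; for Glis3, which has 2 gene entries, the longer was used. The members and lists were chosen with earlier results of these data known. Some listed items are not reported here. The alternatives left out peaks under 1 kb, joined peaks less than 1 kb apart, or used overlap of a peak's midpoint or of most of the peak, limits of the longest protein-coding transcript, other flanks and a distance of 500 bp around gene ends.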

Additional observations from a re-analysis of the deposited data

How the results depend on the processing

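Of 72 values recomputed under the alternatives, 60 stayed within the limits set for an unchanged value (within 1.5 times a count, or within the 95% binomial interval of a share, which covers counting of bases or genes alone). With peaks of at least 1 kb, Zic2 had 0 peaks and 0% covered, the Zic2-Zic5 window held 1 peak, and the share of protein-coding genes with a peak was 31.8% and that of pairs with a peak in both genes 23.9%. By midpoint these shares were 34.9% and 19.5%, and with the greater part of the peak inside the feature 34.4% and 18.97%. By the longest protein-coding transcripts, Zic4 had 1 peak and 11.7% covered, and 1 member had its TSS in a peak. The space between Zic1 and Zic4 exists by these transcripts alone, and 0% of it was covered under each alternative for the peaks. Merging peaks closer than 1 kb changed no value. The alternatives for the exon end that encodes the first 2 C2H2 matches were chosen after seeing the data, and with peaks of at least 1 kb it lay in a peak in 3 of 4 genes. No paired analysis was possible because there is 1 list. Peak calls carry no score, so a base outside peaks is not shown to lack R-loops, and the strand of the RNA is unknown.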
